A study of Mus musculus with 8 samples.

Results

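The 8 liver libraries of the study were compared by replicate number, with replicates 1 and 4 on one side and replicates 2 and 3 on the other. Each side held 4 of the 8 libraries, 2 infused with normal saline and 2 with 4-HPAA, so that treatment was balanced between the sides and entered every fit as a covariate. The division was noticed in these same counts, and the genes described were chosen by their counts on the 2 sides. The values that follow therefore describe the libraries, and no p-value is given for a difference in expression between the sides.

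The samples were livers of C57BL/6 mice, bought as young adults, that received normal saline or 4-HPAA (4-hydroxyphenylacetic acid, a phenolic acid made by gut microbes) through a portal vein cannula and an implanted osmotic pump for 2 weeks, after which RNA was sequenced (n = 4 per group). All mice, controls included, carried the cannula and were single-housed after surgery. The study used male and female mice, and the labels do not give the sex of the mouse behind each library. Y-linked RNA was present in every library at a like level, as given below. Nothing in the labels says that mice with the same number shared a cage, a day or a surgery.

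Mouse liver RNA varies between animals through several well-known programs. Immediate early genes are transcribed within minutes of a stimulus and mostly encode transcription factors and phosphatases. Sex-biased liver genes follow the pattern of growth hormone release from the pituitary, which in males keeps the major urinary proteins (Mup) high and cytochromes such as Cyp2a4 low. Hepatocytes also differ by their place in the lobule, with Wnt-dependent genes around the central vein, and the tissue holds Kupffer cells, the resident macrophages, and other nonparenchymal cells.

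Total estimated counts ranged from 29603111 to 30673398 in replicates 1 and 4 and from 29559978 to 30634051 in replicates 2 and 3, a difference of means of -116217 counts (exact permutation test, two-sided, p = 0.8286). Genes with at least 10 counts numbered 13637 to 14021 on the first side and 13994 to 14084 on the other. Alb, the hepatocyte marker, took 8.11% to 9.87% of the counts in replicates 1 and 4 and 7.51% to 8.27% in replicates 2 and 3. Transcripts that matched no gene of the annotation held 0.703% to 0.928% of the counts on the first side and 0.968% to 1.06% on the other, without overlap. Of the 2686 unmatched transcripts, 15 carried the same estimated counts, to 3 significant digits in all 8 libraries, as an annotated Mup transcript, and without those 15 the unmatched shares were 0.638% to 0.684% and 0.656% to 0.673%.

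The split took 26.96% of the sum of squares of log2 CPM (counts scaled to library size, per 1e6, after TMM normalization). Treatment took 9.11%, and both shares are over the 12883 genes that reached 10 counts in all 8 libraries. The division was noticed in these counts and treatment was set by the design, so the shares are not compared. Correlations of log2 CPM across genes, which are not independent replicates, ranged from 0.984 to 0.994 (median 0.988) for the 12 pairs of libraries on the same side and from 0.980 to 0.990 (median 0.985) for the 16 pairs on different sides. One library stood against its side. 4-HPAA replicate 1 had a mean correlation of 0.987 with the other libraries of replicates 1 and 4 and of 0.989 with replicates 2 and 3, while each of the other 7 libraries correlated more with its own side. Without 4-HPAA replicate 1 the split took 34.6% of the sum of squares. Leaving out the library that stood against its side favours such a rise by construction. The values below are given with and without this library where they rest on it.

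A gene was counted as following the split where all 4 libraries of one side lay above all 4 of the other in CPM and the fitted difference was at least 1.5-fold. Of the 12883 genes, 51 (0.396%) followed it upward in replicates 1 and 4 and 126 (0.978%) downward, 177 (1.37%) in all. Without the demand on size, 537 genes (4.17%) were higher and 497 (3.86%) lower without overlap, or 8.03% in either direction. These shares are the background for every gene list below, and since the same contrast chose the genes nothing is read from them as a test. Leaving out 4-HPAA replicate 1 raised the counts to 133 and 331. Fewer libraries separate more easily by construction, and leaving out any other single library also raised both counts. In 87 of the 177 genes that followed the split, 4-HPAA replicate 1 was the library of its side closest to the other side, while normal saline replicate 1 was closest in 38, normal saline replicate 4 in 31 and 4-HPAA replicate 4 in 21. Apoc2 (log2 difference 0.59) lay just inside the limit of size and Sgce (0.58) just outside it. Of genes near the limit on counts, 168 had exactly 10 in their lowest library and 141 had exactly 9.

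Immediate early genes were higher in replicates 1 and 4. Among the 20 members tested, 18 were higher, 4 (Btg2, Junb, Ier2 and Dusp1) followed the split, and the median log2 difference (replicates 1 and 4 minus 2 and 3) was 0.63, against -0.01 over all genes tested. The promoters of 3 of the 4 are in the RefSeq table of GRCm38.p6, from 250 bases before to 50 after the start, and that of Ier2 is not. They are shown because these genes followed the split in the same direction, which is how they were picked. The cAMP response element TGACGTCA and its shorter core TGACG are in capitals, searched on both strands and written 5′ to 3′ along each gene.
Btg2 (chr1:134079106-134079405, minus strand): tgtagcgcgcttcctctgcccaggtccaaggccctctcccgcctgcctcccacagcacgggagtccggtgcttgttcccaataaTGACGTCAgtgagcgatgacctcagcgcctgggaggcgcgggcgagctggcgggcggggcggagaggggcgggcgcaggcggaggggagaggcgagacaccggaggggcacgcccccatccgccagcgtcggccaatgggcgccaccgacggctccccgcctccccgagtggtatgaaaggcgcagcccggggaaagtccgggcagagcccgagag
Junb (chr8:84978699-84978998, minus strand): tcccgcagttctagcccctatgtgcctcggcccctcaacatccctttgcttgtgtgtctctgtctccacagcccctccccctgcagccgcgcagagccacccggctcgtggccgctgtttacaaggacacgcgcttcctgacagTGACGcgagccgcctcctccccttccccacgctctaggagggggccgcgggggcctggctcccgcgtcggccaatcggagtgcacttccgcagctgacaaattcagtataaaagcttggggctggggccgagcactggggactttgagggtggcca
Dusp1 (chr17:26508423-26508722, minus strand): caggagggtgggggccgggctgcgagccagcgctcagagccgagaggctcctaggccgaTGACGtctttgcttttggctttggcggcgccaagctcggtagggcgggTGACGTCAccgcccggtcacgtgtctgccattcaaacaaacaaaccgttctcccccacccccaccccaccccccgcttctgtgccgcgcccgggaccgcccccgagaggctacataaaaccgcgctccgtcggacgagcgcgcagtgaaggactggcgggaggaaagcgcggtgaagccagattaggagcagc

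The full element occurred once in the Btg2 window and once in the Dusp1 window, and not in that of Junb. The core, which is also contained in the full element on each strand, was found 2 times in Btg2, 1 time in Junb and 3 times in Dusp1. Of the 32851 promoter windows in the table, 1.79% held the full element and 20.8% the core. A CArG box, the binding motif of serum response factor, was in none of the 3 windows and in 1.63% of all windows. These are matches of letters in genes picked from these same counts, and say nothing of what bound there or of a shared regulator.

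Btg2 (ENSMUSG00000020423, chromosome 1 from 134075170 to 134079120), an antiproliferative gene induced by many stimuli, was at 91.3, 54.2, 40.6 and 39.4 CPM in normal saline replicates 1 and 4 and 4-HPAA replicates 1 and 4. In replicates 2 and 3 of normal saline and of 4-HPAA it was at 17.9, 15.2, 16.4 and 13.8 CPM. All 4 libraries of the first side were more than 2 times the highest of the other, and the log2 difference was 1.77 (SE 0.20), or 1.86 without 4-HPAA replicate 1. Junb (ENSMUSG00000052837, chromosome 8 from 84974484 to 84978718), a subunit of the AP-1 transcription factor, was at 45.6, 31.8, 51.9 and 17.7 CPM in replicates 1 and 4, in the same order, and at 13.2, 12.7, 15.2 and 13.5 CPM in replicates 2 and 3. Here 4-HPAA replicate 4 lay only slightly above the other side, and the log2 difference was 1.43 (SE 0.29), or 1.12 without 4-HPAA replicate 1. Prdx2 overlaps Junb in the annotation.

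Ier2, a nuclear immediate early protein, was likewise lowest of its side in 4-HPAA replicate 4, with 47.5, 29.1, 39.6 and 18.8 CPM against 16.4, 16.0, 14.7 and 18.2 CPM (log2 difference 1.03, SE 0.24). The difference was 0.87 without 4-HPAA replicate 1 and 0.83 without normal saline replicate 1. Dusp1, a phosphatase that switches off MAP kinases, was at 115.4, 60.6, 69.4 and 62.6 CPM against 48.8, 52.0, 34.5 and 60.01 CPM (log2 difference 0.64, SE 0.22, and 0.40 without normal saline replicate 1). In both genes the sides parted by a narrow margin. Fos and Nr4a1, named after their values were seen, had larger log2 differences, Fos with overlap and Nr4a1 without. Fos, the partner of Jun in AP-1, was at 45.6 CPM in normal saline replicate 1, 27.5 in 4-HPAA replicate 1 and 7.39 in normal saline replicate 4, but at 0.42 in 4-HPAA replicate 4, below the 0.65 to 0.95 CPM of replicates 2 and 3. Nr4a1, an orphan nuclear receptor with the same kinetics, was at 22.1 CPM in normal saline replicate 1 and 1.19 to 3.09 in the other 3 libraries of its side, against 0.70 to 1.13 CPM. The list score, the median over members of log2 CPM minus the mean of the 8 libraries, was 0.93 in normal saline replicate 1, 0.38 in 4-HPAA replicate 1, 0.13 in normal saline replicate 4 and -0.17 in 4-HPAA replicate 4. The last value lay inside the range of the other side, from -0.59 to -0.12, so that the list as a whole overlapped between the sides. Leaving out single libraries put the median difference between 0.46 and 0.97, and without 4-HPAA replicate 1 it was 0.63.

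**Figure D1:**
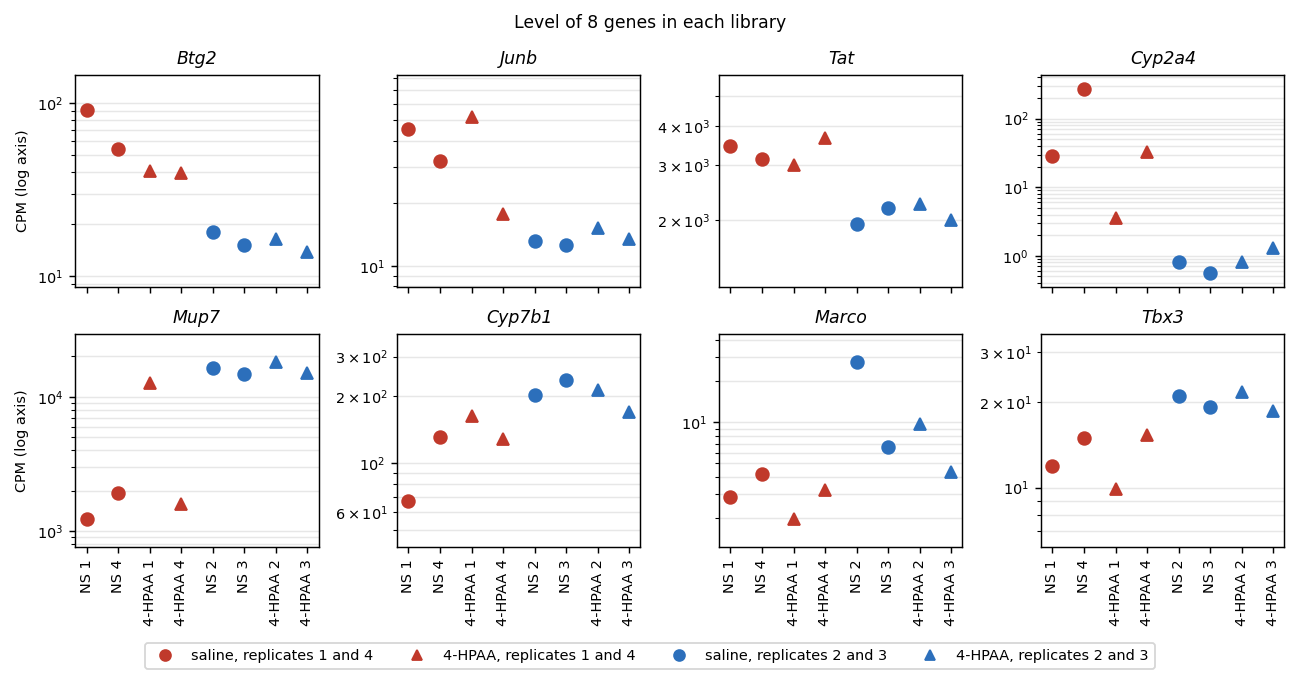
Levels in CPM, on log axes, of 8 genes in each of the 8 libraries, with circles for normal saline (NS), triangles for 4-HPAA, red for replicates 1 and 4 and blue for replicates 2 and 3. The red and blue points do not overlap in any panel, and in the panel of Mup7 the red triangle of 4-HPAA replicate 1 (12599 CPM) sits next to the blue points.

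Genes of gluconeogenesis and amino acid breakdown were moderately higher in replicates 1 and 4. Of the 12 genes of gluconeogenesis and insulin repression, 10 were higher with a median log2 difference of 0.26, or 0.23 without 4-HPAA replicate 1, and 2 followed the split. Tat, tyrosine aminotransferase, a classic glucocorticoid target that starts tyrosine breakdown, was at 3461, 3139, 3003 and 3667 CPM in replicates 1 and 4 and at 1951, 2182, 2254 and 2006 CPM in replicates 2 and 3. The 4 values of each side were close to one another, and the log2 difference of 0.66 (SE 0.10) changed to 0.74 without 4-HPAA replicate 1. Sds, serine dehydratase, which feeds serine into gluconeogenesis, was at 494.7, 594.2, 443.1 and 640.3 CPM against 352.5, 352.4, 326.1 and 346.2 CPM (log2 difference 0.66, SE 0.12). The rate-limiting enzymes overlapped between the sides. Pck1 and G6pc, named after their values were seen, had log2 differences of 0.23 (SE 0.10) and -0.06 (SE 0.24).

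Of 32 genes of amino acid breakdown and the methionine cycle, 26 were higher, 6 of them without overlap (18.8%), with a median of 0.18 that was 0.11 without normal saline replicate 4. Glucocorticoid receptor targets had a median of 0.38 over 14 genes, of which 13 were higher and Tat alone followed the split. This list was carried mostly by normal saline replicate 1, whose score of 0.75 compared with -0.07, 0.11 and -0.0011 in normal saline replicate 4 and 4-HPAA replicates 1 and 4, and its median was 0.16 without that library. Socs3, a feedback inhibitor of cytokine and growth hormone signalling, was at 8.11, 8.73, 13.02 and 9.62 CPM in replicates 1 and 4 and at 5.42, 4.23, 5.67 and 5.89 CPM in replicates 2 and 3 (log2 difference 0.89, SE 0.13). It was the only one of the 27 acute phase genes that followed the split, and the median of that list was 0.18. Ppp1r3g, a glycogen-targeting subunit of protein phosphatase 1, was at 13.3, 15.7, 10.9 and 16.4 CPM against 8.30, 4.199, 7.47 and 4.59 CPM (log2 difference 1.20, SE 0.23).

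Sex-biased liver genes differed more than any other hand-written liver program in median. Male-biased genes were lower in replicates 1 and 4, with 20 of 22 members lower, 6 following the split and a median log2 difference of -0.79, or -0.78 without 4-HPAA replicate 1. Female-biased genes were higher, with all 6 tested members higher, 2 following the split and a median of 0.80, or 0.93 without that library and 0.46 without normal saline replicate 1. Without Cyp2a4, whose reads are discussed below, the median was 0.65. The other 10 female-biased genes listed fell below 10 counts in at least 1 library and stayed out of the fit. Of these, Cyp2b9 had the most counts, 210 and 105 in normal saline replicates 1 and 4, 61 and 1 in 4-HPAA replicates 1 and 4, 19 and 17 in normal saline replicates 2 and 3 and 10 and 31 in 4-HPAA replicates 2 and 3.

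Mup7 (ENSMUSG00000073842, chromosome 4 from 60066469 to 60070475) encodes a major urinary protein, a pheromone carrier secreted by the male liver. It was at 1219, 1931, 12599 and 1580 CPM in normal saline replicates 1 and 4 and 4-HPAA replicates 1 and 4, and at 16323, 14665, 18284 and 15058 CPM in replicates 2 and 3. Normal saline replicates 1 and 4 and 4-HPAA replicate 4 were low, and 4-HPAA replicate 1 was near the other side. The log2 difference of -2.27 (SE 0.65) became -3.32 without 4-HPAA replicate 1. Mup1 showed the same arrangement, at 70.3, 82.2, 583.0 and 65.5 CPM against 659.1, 729.2, 676.8 and 636.1 CPM, with a log2 difference of -2.10 (SE 0.66) that became -3.22.

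Of the 20 Mup genes tested, 19 were lower in replicates 1 and 4 and 5 followed the split. In 16 of the 20, normal saline replicates 1 and 4 and 4-HPAA replicate 4 were the 3 lowest of the 8 libraries, and in 10 the value of 4-HPAA replicate 1 lay within the range of replicates 2 and 3. Mup genes are near-identical copies among which kallisto divides reads, so the levels of single members are uncertain, and their sum is less so. Summed over the 22 Mup genes of the annotation, the level was 31194, 30179, 65749 and 30538 CPM in replicates 1 and 4 and 65792, 70780, 64189 and 65647 CPM in replicates 2 and 3. The sums of 3 libraries were thus far below those of the other 5, and 4-HPAA replicate 1 lay inside the range of the other side.

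Male-biased genes outside the Mup family were also lower. Cyp7b1, an oxysterol hydroxylase of bile acid synthesis, was at 67.2, 130.5, 162.8 and 128.0 CPM against 202.5, 236.5, 211.7 and 168.6 CPM (log2 difference -0.77, SE 0.23, and -0.89 without 4-HPAA replicate 1). Susd4, a complement regulator, was named after its values were seen. It was at 10.4, 14.4, 18.9 and 11.6 CPM against 31.9, 23.3, 32.4 and 19.6 CPM (log2 difference -0.96, SE 0.22). In both, 4-HPAA replicate 1 was the highest of its side. Without the Mup genes the median of the male-biased list was -0.52.

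Cyp2a4 (ENSMUSG00000074254, chromosome 7 from 26307169 to 26315088), a steroid hydroxylase expressed mainly in female liver, had the largest difference of all genes tested. It was at 28.2, 275.1, 3.56 and 32.3 CPM in replicates 1 and 4 and at 0.82, 0.56, 0.80 and 1.29 CPM in replicates 2 and 3, a log2 difference of 6.07 (SE 1.18). Every library of the first side exceeded the other side, but their own values spanned 3.56 to 275.1 CPM. Its paralog Cyp2a5 is nearly identical and far more counts were assigned to it, so reads of one could be counted for the other, and the 2 genes together were at 742.3, 1321, 1160 and 928.1 CPM against 1015, 1052, 1003 and 782.0 CPM, with no separation. Abcd2, a peroxisomal fatty acid transporter, was at 40.3, 47.7, 25.7 and 34.2 CPM against 23.8, 14.8, 19.1 and 18.1 CPM (log2 difference 0.94, SE 0.17). Cux2, a repressor of male-biased genes named after its values were seen, overlapped between the sides, with a log2 difference of 1.06 (SE 0.48).

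The side difference of the female-biased list was 1.34 within normal saline and 0.10 within 4-HPAA (medians of differences of mean log2 CPM), and that of the male-biased list was -1.16 and -0.44. Scores of the male-biased list were -0.88 and -0.62 in normal saline replicates 1 and 4, -0.25 in 4-HPAA replicate 4 and 0.07 in 4-HPAA replicate 1, against 0.17 to 0.53 in replicates 2 and 3. Y-linked genes did not move with the split. The levels of Ddx3y, Eif2s3y, Kdm5d and Uty together were 165.6, 162.0, 157.5 and 169.0 CPM in replicates 1 and 4 and 152.4, 179.8, 165.3 and 167.5 CPM in replicates 2 and 3, so that all 8 libraries held Y-linked RNA at a like level.

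**Figure D2:**
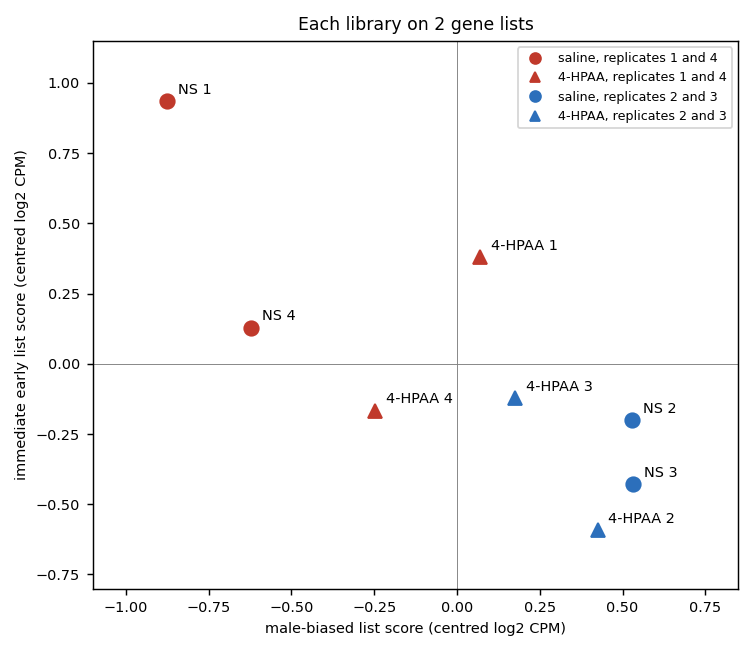
Score of the immediate early list (vertical axis) against that of the male-biased list (horizontal axis) in each library, both as median centred log2 CPM, with circles for normal saline (NS), triangles for 4-HPAA, red for replicates 1 and 4 and blue for replicates 2 and 3. 4-HPAA replicate 1 has a high immediate early score (0.38) and a male-biased score of 0.07, while 4-HPAA replicate 4 has scores of -0.17 and -0.25.

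Macrophage genes were lower in replicates 1 and 4. All 13 Kupffer cell markers were lower, with a median log2 difference of -0.84, and 1, Marco, followed the split. Marco, a scavenger receptor, was at 2.82, 4.19, 1.96 and 3.22 CPM in replicates 1 and 4 and at 27.8, 6.66, 9.74 and 4.34 CPM in replicates 2 and 3 (log2 difference -1.89, SE 0.47). Normal saline replicate 2 was far above the rest, and without it the difference was -1.21. The other 12 markers overlapped between the sides. Clec4f, a lectin found only on Kupffer cells, was at 34.9, 31.6, 60.8 and 29.3 CPM against 82.5, 59.7, 69.7 and 42.6 CPM, and Cd5l, a secreted macrophage protein, was at 33.4, 26.2, 55.7 and 23.8 CPM against 98.3, 64.5, 82.3 and 42.3 CPM. Summed over the 13 markers the level was 165.1, 131.3, 271.6 and 125.5 CPM in replicates 1 and 4 and 419.2, 276.6, 366.5 and 205.7 CPM in replicates 2 and 3. The list median was -1.24 without 4-HPAA replicate 1, and between -1.24 and -0.65 with each library left out in turn. In bulk tissue, fewer cells of a type and less RNA per cell cannot be told apart.

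Some leukocyte genes outside the marker lists, named after their values were seen, also followed the split downward, at low levels. Of the listed genes, 0 of 7 for monocytes and neutrophils and 0 of 9 for lymphocytes followed it. Spi1, the transcription factor PU.1 of myeloid cells, was at 1.154 to 1.96 CPM in replicates 1 and 4 and 2.10 to 3.33 CPM in replicates 2 and 3. Itgb2, a leukocyte integrin subunit, was at 1.43 to 2.58 CPM against 2.78 to 4.77 CPM, and Fcgr4, an Fc receptor, at 1.22 to 2.20 CPM against 2.46 to 4.43 CPM. Lists of other nonparenchymal cells had smaller medians, -0.34 over 7 monocyte and neutrophil genes, -0.44 over 9 lymphocyte genes, -0.28 over 19 sinusoidal endothelial genes and -0.09 over 26 stellate cell and matrix genes. Each of these rested in part on 1 library, with -0.11 for monocytes and neutrophils without normal saline replicate 4, -0.24 for lymphocytes without normal saline replicate 1, and -0.12 for endothelium and 0.08 for stellate cells without 4-HPAA replicate 4. Cholangiocyte genes had the opposite sign, 0.38 over 6 genes, or 0.20 without normal saline replicate 1, and 4 other listed genes of these ducts were not tested. Hepatocyte markers were higher, with 12 of 13 higher, 8 of them without overlap (61.5%) and a median of 0.23.

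Interferon-stimulated genes were lower in replicates 1 and 4 in 37 of 38 cases, with a median of -0.37, or -0.49 without 4-HPAA replicate 1 and -0.25 without 4-HPAA replicate 2, and 3 followed the split, Igtp and Irgm2 among them. Irgm2, an immunity-related GTPase, was at 32.5, 28.8, 31.7 and 24.2 CPM against 35.6, 67.1, 90.5 and 34.5 CPM (log2 difference -0.95, SE 0.30), and Igtp, which overlaps Irgm2 in the annotation and may share its reads, had a log2 difference of -0.97 (SE 0.31). Without 4-HPAA replicate 2 these were -0.57 and -0.62. In Irgm2 normal saline replicate 3 and 4-HPAA replicate 2 were high, and the other 2 libraries of that side lay just above the first side. The list score was 0.55 in 4-HPAA replicate 2, 0.18 in normal saline replicate 3, 0.04 in normal saline replicate 2 and -0.10 in 4-HPAA replicate 3, against -0.38 to 0.07 on the first side, so the list overlapped between the sides.

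Pericentral genes were lower and periportal genes slightly higher in replicates 1 and 4. Of 20 pericentral genes 18 were lower, with a median of -0.33, or -0.42 without 4-HPAA replicate 1 and -0.21 without 4-HPAA replicate 4. Tbx3 followed the split, and Slc1a2 and Gulo, named after their values were seen, were also lower without overlap (3 of 20, 15%), with log2 differences of -0.50 (SE 0.10) and -0.21 (SE 0.10). Tbx3, a Wnt-dependent transcription factor, was at 11.96, 14.9, 9.88 and 15.4 CPM against 20.99, 19.3, 21.7 and 18.6 CPM (log2 difference -0.63, SE 0.14). Rspo3, an endothelial ligand that strengthens Wnt signals at the central vein, was at 2.31, 1.75, 1.96 and 1.57 CPM against 2.98, 3.21, 2.97 and 3.14 CPM (log2 difference -0.70, SE 0.16). In both genes 4-HPAA replicate 1 lay with its own side. Glul, glutamine synthetase, named after its values were seen, was at 965.5, 415.2, 809.4 and 512.3 CPM against 934.8, 836.9, 836.5 and 841.4 CPM, and was low in both libraries numbered 4. The list scores were -0.26 in normal saline replicate 4 and -0.31 in 4-HPAA replicate 4, -0.05 in normal saline replicate 1, and 0.10 in 4-HPAA replicate 1 against 0.13 to 0.23 on the other side. Of 18 periportal genes 15 were higher, with a median of 0.19 that was 0.08 without normal saline replicate 4. Sds followed the split upward and Sult5a1 downward. Sult5a1 had the largest absolute difference of the list, at 8.66, 9.82, 12.3 and 4.97 CPM against 12.9, 22.5, 16.6 and 14.6 CPM (log2 difference -0.90, SE 0.26).

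**Figure D3:**
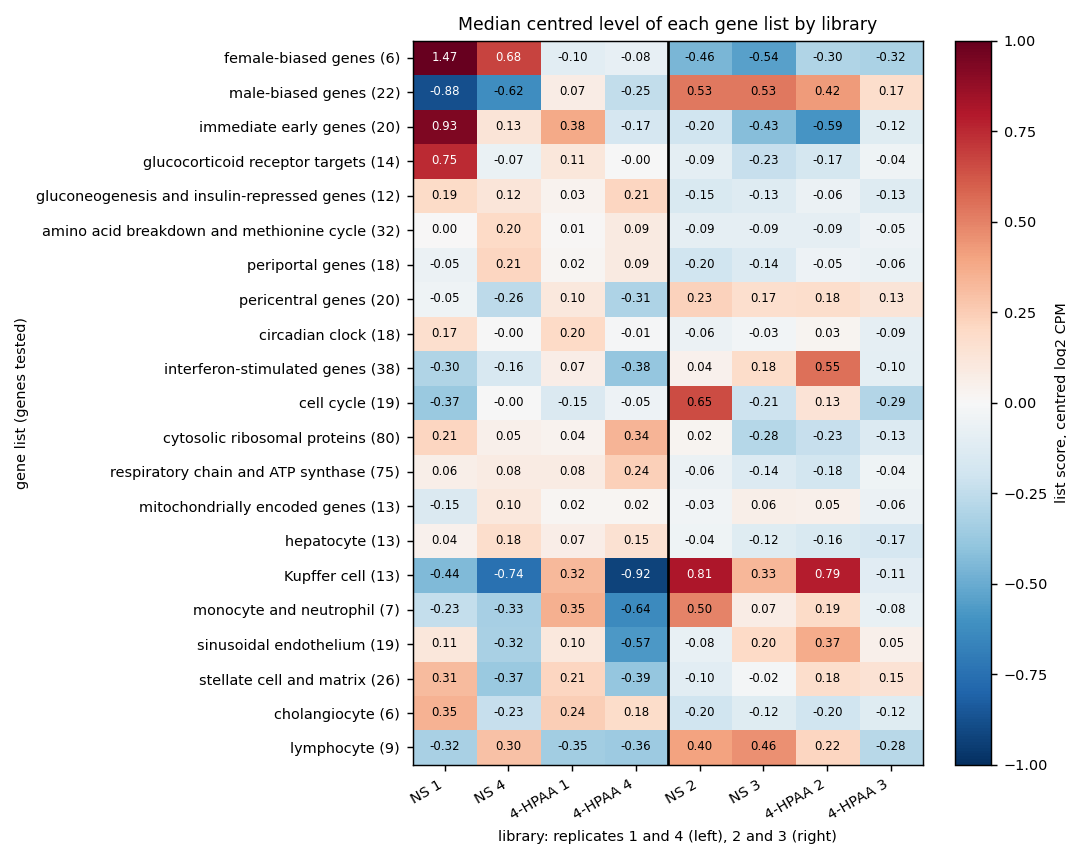
Score of 21 gene lists (rows, with the number of genes tested) in the 8 libraries (columns, replicates 1 and 4 left of the line), as median log2 CPM minus the mean of the libraries, in red where above 0 and blue where below, with the colour scale ending at -1 and 1. Immediate early scores are highest in normal saline replicate 1 (0.93) and 4-HPAA replicate 1 (0.38), while Kupffer cell scores are lowest in normal saline replicate 4 (-0.74) and 4-HPAA replicate 4 (-0.92).

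Transcripts of ribosomal proteins and of the nuclear-encoded respiratory chain were slightly higher in replicates 1 and 4. Of 80 cytosolic ribosomal protein genes, 79 were higher with a median of 0.32, or 0.39 without 4-HPAA replicate 1, and 23 (28.8%) did not overlap. Of 75 genes of the respiratory chain and ATP synthase, 74 were higher with a median of 0.22, and 45 (60%) did not overlap, although none followed the split. Ndufa3, a subunit of complex I named after its values were seen, was at 51.8, 49.2, 50.6 and 55.5 CPM against 43.6, 37.6, 37.3 and 37.6 CPM (log2 difference 0.41, SE 0.08). Rps21, a protein of the small ribosomal subunit also named after its values were seen, was at 99.1, 87.1, 87.3 and 107.2 CPM against 80.6, 59.996, 59.5 and 72.4 CPM (log2 difference 0.48, SE 0.12). The 13 genes encoded by the mitochondrial genome had a median of -0.01 and none separated the sides.

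These transcripts are short, and the difference between the sides moved with transcript length over all genes. In the shortest of 10 classes of equal size (up to 1166 bases) the median log2 difference was 0.14, and in the longest (from 6046 bases) it was -0.14, with intermediate values in order between them. The same order was seen within normal saline, from 0.10 to -0.06, and within 4-HPAA, from 0.18 to -0.22. By library, the shortest class had a median score of 0.16 in 4-HPAA replicate 4, 0.07 in normal saline replicate 4, 0.05 in 4-HPAA replicate 1 and 0.02 in normal saline replicate 1, against -0.13, -0.13, -0.04 and 0.01 in normal saline replicate 3, 4-HPAA replicate 2, 4-HPAA replicate 3 and normal saline replicate 2. In the longest class normal saline replicate 1 (0.03) and normal saline replicate 2 (-0.05) went against their sides, and the other 6 libraries went with them, from -0.14 to -0.04 in replicates 1 and 4 and from 0.08 to 0.15 in replicates 2 and 3. After the median of its own length class was subtracted from each gene, the list medians were 0.19 for ribosomal proteins, 0.11 for the respiratory chain, 0.18 for hepatocyte markers, -0.81 for male-biased genes, 0.59 for immediate early genes, -0.87 for Kupffer cell markers and -0.40 for interferon-stimulated genes. The part of transcript length in the first 2 of these was otherwise not tested. Base composition varied less, with medians between -0.08 and 0.03 over 10 classes of GC content. Genes without a transcript sequence to measure entered the lowest class of length and of GC content with a value of 0.

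**Figure D4:**
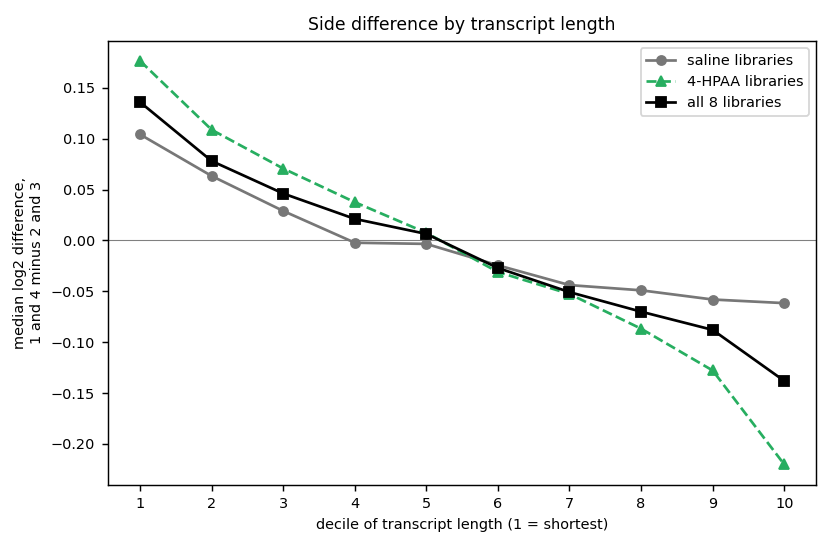
Median log2 difference between replicates 1 and 4 and replicates 2 and 3 (vertical axis) for genes in 10 classes of transcript length, shortest to longest (horizontal axis), in all 8 libraries (black squares), in normal saline (grey circles) and in 4-HPAA (green triangles). The black line descends from 0.14 in the shortest class to -0.14 in the longest.

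Other programs had few or no members that followed the split. The circadian clock had a median of 0.06 over 18 genes, of which 0 followed the split and 1, Ciart, a clock repressor, separated the sides without reaching 1.5-fold (36.0, 29.8, 34.7 and 29.6 CPM against 27.2, 22.6, 25.5 and 16.8 CPM). Among the core genes Arntl had a log2 difference of -0.03 (SE 0.58), Nr1d1 one of 0.02 (SE 0.27), Per2 one of -0.02 (SE 0.09) and Dbp one of 0.13 (SE 0.27). Of 10 rhythmic outputs of the clock, 8 were higher and 0 followed the split, with a median of 0.19. Of 10 p53 targets, 8 were higher and 0 followed it, with a median of 0.29, or 0.16 without normal saline replicate 1. The scores of both lists did not overlap between the sides, which held for 10 of 46 lists. Lipogenesis (20 genes, median 0.19), sterol synthesis (25 genes, 0.20) and fatty acid oxidation (31 genes, 0.12) had no member that followed the split, although 19, 20 and 29 of their genes were higher and 4 of the last (12.9%) did not overlap. Bile acid and sterol transport (0.01), NRF2 and glutathione (-0.01), the xenobiotic cytochromes P450 (-0.01), NF-kappaB (0.03) and the unfolded protein response (-0.04) had medians near that of all genes, and each of these 5 medians took the other sign without some single library. Cyp7b1 and Cyp2a4 were the only followers in these 5 lists.

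Some genes with large differences rested on 1 or 2 libraries. Cell cycle genes had a median of -0.31 over 19 genes, which was -0.15 without normal saline replicate 1 and 0.0063 without normal saline replicate 2, where Mki67, a proliferation marker named after its values were seen, was at 28.7 CPM against 1.09 to 3.501 in the other 7 libraries. The red blood cell list was high in normal saline replicate 2 (score 2.89) and 4-HPAA replicate 4 (0.77), which lie on different sides, and its median of -0.21 moved to 0.82 without the first and to -1.08 without the second. Onecut1, a hepatocyte transcription factor, was at 16.2, 12.9, 38.7 and 34.1 CPM against 136.8, 100.02, 33.9 and 133.6 CPM. The low value of 4-HPAA replicate 2 kept it from separating the sides, and its log2 difference was -2.10 (SE 0.48). Cdkn1a, a cyclin-dependent kinase inhibitor, was at 28.4 CPM in normal saline replicate 1 and 27.2 in 4-HPAA replicate 4, and at 2.78 to 7.60 CPM in the other 6 libraries.

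Among the genes with the largest differences, several belong to none of these programs. Higher in replicates 1 and 4 were Nipal1, a magnesium transporter (39.6, 36.5, 24.3 and 31.1 CPM against 14.4, 9.05, 15.9 and 10.9 CPM), Osbpl3, an oxysterol-binding protein (6.57, 14.9, 6.28 and 20.6 CPM against 4.97, 4.10, 5.202 and 4.85 CPM), and Tmc7, a transmembrane channel-like protein (log2 difference 0.97, SE 0.11). Rps12-ps3, protein-coding in the annotation but named as a pseudogene of Rps12, whose reads it could share, had a log2 difference of 1.55 (SE 0.34). Lower were E2f8, a repressor of the E2F family (11.1, 8.86, 7.65 and 8.08 CPM against 21.1, 17.1, 11.1 and 23.6 CPM), Acot11, an acyl-CoA thioesterase (5.77, 3.40, 6.56 and 2.34 CPM against 8.44, 12.3, 7.24 and 8.99 CPM), Aatk, a kinase (log2 difference -1.35, SE 0.29), Exd1 (log2 difference -1.001, SE 0.17) and the pseudogene Adh6-ps1 (log2 difference -1.06, SE 0.13). Of the 177 genes that followed the split, 118 had a mean under 5 CPM, 164 were protein-coding (92.7%, against 97.2% of genes tested) and 25 were members of a hand-written list. Transcripts of those higher were shorter (median 2366 bases) than of those lower (3152 bases), with 2846 bases over all genes tested.

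The side difference was compared between the infusions gene by gene. It had the same sign in normal saline and 4-HPAA in 8507 of the 12883 genes (66.0%), with a correlation across genes of 0.46 (Pearson) and 0.42 (Spearman), as a description in which the division was chosen with both sets of libraries in view. Kupffer cell markers had medians of -1.16 in normal saline and -0.57 in 4-HPAA, immediate early genes 0.72 and 0.47, and pericentral genes -0.32 and -0.35. The red blood cell list pointed in opposite directions, -1.15 and 0.82. A test of unequal side differences in the 2 infusions (edgeR's quasi-likelihood test of the interaction) passed 0 of 12883 genes after Benjamini-Hochberg adjustment, with 258 genes (2.00%) at an unadjusted p under 0.05. The side was noticed in these counts with both infusions in view, so these p-values and the ranking by them are descriptive. The 5 genes with the smallest p, each with an adjusted p of 1.00 in that test, were Hamp2, Hsd3b5, Bcar3, Zfp395 and Pprc1. Hamp2, a hepcidin gene with a close paralog, was at 49.8 and 36.1 CPM in normal saline replicates 1 and 4 against 9.06 and 9.61 in normal saline replicates 2 and 3, and at 11.3 to 16.1 CPM in all 4 4-HPAA libraries. Hsd3b5, a male-specific steroid dehydrogenase, was at 51.2 and 51.0 CPM against 144.1 and 132.0 in normal saline, and at 93.4 to 129.4 CPM with 4-HPAA.

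**Figure D5:**
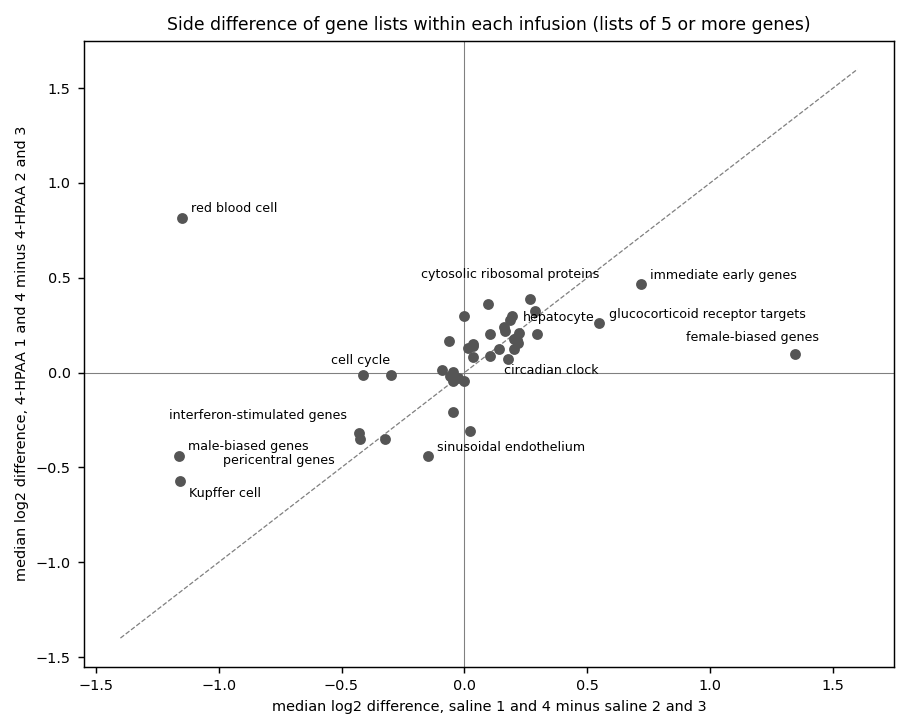
Median log2 difference between the sides within 4-HPAA (vertical axis) against that within normal saline (horizontal axis) for each gene list with 5 or more genes tested (points), with a dashed line where both are equal. Kupffer cell markers lie at -1.16 and -0.57, female-biased genes at 1.34 and 0.10, and the red blood cell list at -1.15 and 0.82, in the quadrant of opposite signs.

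Treatment was tested beside the split, with the side as a covariate. Because the side was noticed in these counts, the p-values with this covariate hold only given that choice. No gene passed (0 of 12883, Benjamini-Hochberg adjusted p from edgeR's quasi-likelihood fit), 261 genes (2.03%) had an unadjusted p under 0.05, and DESeq2 called 5 and limma-voom 0. Without the covariate 225 genes had an unadjusted p under 0.05, and without 4-HPAA replicate 1 there were 589, with a smallest adjusted p of 0.0667 in edgeR's test. Ranked by p, the first 5 genes were Ggnbp1 (log2 fold change, 4-HPAA minus saline, -0.65, SE 0.10), Zfp36l2 (0.76, SE 0.14), Rnaset2a (0.68, SE 0.12), Fchsd2 (0.33, SE 0.07) and Creb3l2 (0.36, SE 0.08), each with an adjusted p of 1.00 in edgeR's test.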

How the data were processed

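Liver RNA of 8 mice (4 normal saline, 4 4-HPAA) was prepared with a strand-directional Illumina TruSeq mRNA kit and sequenced on an Illumina NovaSeq. The authors quantified reads with kallisto against GRCm38.p6 transcripts and deposited 1 table of estimated counts per transcript, which are not normalized. Whether the counting used strand is not given in the sources used here. Of 119414 transcripts, 116728 matched GENCODE M21. Estimated counts were summed per gene, rounded, and kept with at least 10 in every library. TMM normalization and edgeR 4.0.16 quasi-likelihood fits (R 4.3.3) used side and treatment as terms, with Benjamini-Hochberg adjustment over all genes tested. DESeq2 1.42.0 and limma 3.58.1 (voom) were alternatives, and the fits were tested on simulated data. Log2 CPM for scores used a prior count of 2.

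Named genes were the 10 that followed the split with the largest difference in each direction at a mean of at least 5 CPM, up to 4 followers of each list (or the member with the largest difference where none followed), the clock genes, the 2 most abundant markers of each cell type, and the 5 genes with the smallest p in each test. Genes outside this rule whose values are given are marked as named after their values were seen. The genes at the limit of size, the Y-linked genes, Cyp2a5 and Cyp2b9 are also outside the rule and carry no mark. The division, members and lists were chosen with earlier results of these data known. Labels do not say how replicates were taken beyond separate samples, so p-values measure only the spread between these samples. Some named members of the lists are not reported here.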

Additional observations from a re-analysis of the deposited data

Results flagged for a closer look

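Each group of 4 libraries of 1 infusion was examined for a highest or lowest library whose gap to the nearest other, as a share of the range, exceeded Dixon's critical value for 4 samples. Of 262 groups 31 did, and a rate of 1 in 20 would give 13.1. Many of the genes were named for large differences or small p in these same counts, which favours extreme libraries. Groups of the same libraries are also not independent, so the number is not read as an excess over chance.

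Normal saline replicate 1 was high in Cdkn1a (gap share 0.876), Spp1 (0.841) and the glucocorticoid receptor target score (0.835). Normal saline replicate 2 was high in Marco (0.846), Kif11 (0.881), Hbb-bs (0.908) and the red blood cell score (0.853). Normal saline replicate 3 was high in Igtp (0.941) and low in the scores of lipogenesis (0.836), acute phase (0.855) and proteasome subunits (0.895). Normal saline replicate 4 was high in Cyp2a4 (0.899), Gsta1 (0.906) and Cela2a (0.849), the last below 1 CPM in all 4 libraries.

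4-HPAA replicate 1 was high in Junb (0.890) and Ier2 (0.836). 4-HPAA replicate 2 was high in Igtp (0.875), Irgm2 (0.845), Ighm (0.851), Hsd3b5 (0.895) and the lymphocyte score (0.859). 4-HPAA replicate 3 was high in Onecut1 (0.952) and the score of the growth hormone and IGF1 axis (0.854). 4-HPAA replicate 4 was high in Cyp2a4 (0.912), Osbpl3 (0.909), Fads2 (0.846), Hbb-bs (0.950) and the red blood cell score (0.870), and low in Mup1 (0.847) and the scores of pericentral genes (0.844) and of stellate cell and matrix genes (0.886).

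Of the named genes, 3 had a side difference of one direction in every normal saline library and of the other in every 4-HPAA library. Genes that were not named, and most clock genes, were not searched. These 3 were named for a small p in the interaction test, which picks out such differences, so they give no rate over all genes. The side difference was 0.43 in normal saline and -0.30 in 4-HPAA for Bcar3, 0.76 and -0.27 for Zfp395, and -0.72 and 0.11 for Pprc1. None passed the interaction test (edgeR's quasi-likelihood test, adjusted p of 1.00).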

How the results depend on the processing

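The number of genes following the split depended on the settings. Against 51 higher and 126 lower, there were 208 and 436 within 4-HPAA alone, 270 and 582 within normal saline alone, 131 and 220 with at least 10 counts summed over libraries, 28 and 48 with at least 50 counts in every library, 13 and 31 at 2-fold, and 537 and 497 with no minimum fold. With fewer libraries, separation without overlap is easier by construction. With single libraries left out the counts ranged from 61 to 133 higher and from 130 to 331 lower. They were 133 and 331 without 4-HPAA replicate 1, 84 higher without normal saline replicate 1, 102 higher without normal saline replicate 2 and 301 lower without 4-HPAA replicate 3. Relative log expression factors gave 52 and 120, and scaling by totals 39 and 154. The variance share was 25.4% to 34.6% with single libraries left out and 33.6% on the 500 most variable genes. Over 46 lists, 666 of 691 alternative values moved by less than the spread between libraries, and 25 moved more. Of the 691, 59 in 13 lists had the other sign, such as 0.82 against -0.21 for the red blood cell list without normal saline replicate 2. Over 87 named genes, 1193 of 1205 values moved by less and 12 by more, and 60 in 18 genes had the other sign. Subtracting medians of length classes and removing Mup genes and Cyp2a4 were alternatives chosen after seeing the data.

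For treatment DESeq2 called 5 genes, Ggnbp1, Rnaset2a and Zfp36l2 among them, and for the interaction it called 3, Hamp2 and Hsd3b5 among them, where edgeR called 0 of each. The cause was not tested. With single libraries left out the interaction count ranged from 0 to 2, with 1 without normal saline replicate 4 and 2 without 4-HPAA replicate 4. With the replicate block in place of the side, 0 genes passed for treatment and 336 had an unadjusted p under 0.05. Deviations of samples with the same number correlated at 0.0398, 0.168, 0.268 and 0.480, and own numbers correlated best in 2 of 4, so the numbers were not taken as pairs. The block cannot be fitted for the split, which is itself made of replicate numbers. Of the following genes, 118 had a mean under 5 CPM, where counting error is larger.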
